A study of Mus musculus with 48 samples.

Results

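Cells build cholesterol and fatty acids from acetyl-CoA, and the 33 mouse genes followed here encode enzymes and regulators of both routes. They were taken by gene symbol, as the rows of the deposited tables that bear one of 33 names, out of 24421 genes listed per table. All 33 were listed in each of the 6 tables and passed the filter on low values (a mean of at least 10 normalized reads over a table) in each. By role, 7 belong to the mevalonate steps, 3 to the squalene steps, 8 to the late sterol steps, 6 to the regulators of sterol synthesis, 4 to the making of palmitate and 5 to the elongation and desaturation of fatty acids.

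The measurements were bulk RNA sequencing of 48 libraries of astrocytes, the star-shaped glia that contact synapses and vessels, from mouse cortex, hippocampus and olfactory bulb. A developmental series held astrocytes of postnatal day 1, 7 and 14 (P1, P7 and P14), with 3 libraries per region and age except for 4 of cortex at P14. A second set at P28 compared mice labelled Gabbr1 cKO, a conditional knockout of a subunit of the metabotropic GABA receptor GABAB, with mice labelled Gabbr1 control: 4 cKO and 4 control libraries of cortex, 4 cKO and 2 control libraries of hippocampus, and 3 of each of olfactory bulb. The developmental libraries carry no genotype label, and no strain is given for any library. The Cre driver of the knockout, and how the astrocytes were isolated from the dissociated tissue, are not given in the sources used here. The labels give tamoxifen as the treatment of 15 of the 20 P28 libraries, controls and cKO alike, which were deposited in a later round. The other 5, all cortex (2 controls and 3 cKO), came in the first round and carry no treatment label. Nothing says that libraries of a group came from separate animals, so the p-values below measure only the spread between these libraries.

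Cholesterol synthesis runs from acetyl-CoA through mevalonate to isoprenoid units, joins these to squalene, closes squalene into lanosterol and trims lanosterol to cholesterol. Its genes are controlled together by SREBP transcription factors, which SCAP carries to the Golgi for cleavage when membrane sterol is low and which INSIG proteins hold back in the endoplasmic reticulum when it is high. Palmitate is made from the same acetyl-CoA by acetyl-CoA carboxylase and fatty acid synthase, then lengthened by elongases and given double bonds by desaturases. In the brain little cholesterol enters from the blood, and astrocytes are known as a main local maker of cholesterol and of long polyunsaturated fatty acids that neurons take up.

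Promoter sequence was compared first, because SREBP acts through short elements near the start sites of these genes. RefSeq windows (assembly GRCm38.p6) of 300 bases, from 250 before to 50 after a start site, were found for 26 of the 33 genes, 34 windows in all. The windows were searched for 3 motifs on both strands, each counted separately where letters overlapped: TCACNCCAC, a core of the sterol regulatory element; CCAAT, the letters bound by NF-Y; and GGGCGG, the letters of an Sp1 box. NF-Y and Sp1 are known to act beside SREBP at such promoters. The 150 bases before the start are shown for 1 gene of each of 4 roles that was higher at P14 than at P1 in all 3 regions and had a window (mevalonate, late sterol, palmitate and desaturase), with matched letters in capitals.
Hmgcs1: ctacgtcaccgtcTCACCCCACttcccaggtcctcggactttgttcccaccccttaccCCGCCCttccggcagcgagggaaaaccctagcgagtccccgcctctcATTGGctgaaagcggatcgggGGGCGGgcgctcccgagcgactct
Sc5d: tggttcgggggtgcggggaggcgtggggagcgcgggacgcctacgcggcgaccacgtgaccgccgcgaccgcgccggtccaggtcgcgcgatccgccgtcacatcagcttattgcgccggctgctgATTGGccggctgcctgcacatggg
Acss2: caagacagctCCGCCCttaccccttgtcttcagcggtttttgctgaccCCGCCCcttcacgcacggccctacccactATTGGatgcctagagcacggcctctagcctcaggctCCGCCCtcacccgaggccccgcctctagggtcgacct
Fads2: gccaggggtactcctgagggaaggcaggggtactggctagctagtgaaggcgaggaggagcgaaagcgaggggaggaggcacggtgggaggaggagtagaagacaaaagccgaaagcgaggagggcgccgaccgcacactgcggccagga
These lie at chr13:119690201-119690350 (plus strand), chr9:42264301-42264450 (minus strand), chr2:155517893-155518042 (plus strand) and chr19:10101504-10101653 (minus strand), written 5′ to 3′ in the direction of the gene. Hmgcs1, HMG-CoA synthase, held the sterol element core, 1 CCAAT and 2 Sp1 boxes. Sc5d, lathosterol oxidase, held 1 CCAAT, and Acss2, a cytosolic acetyl-CoA synthetase, held 1 CCAAT and 3 Sp1 boxes. The Fads2 stretch held none of the letters searched. Over full windows, the sterol element core was in 1 of 34 windows of these genes (2.94%) and in 1.24% of all 32851 RefSeq windows. That 1 window was the one of Hmgcs1. Mvd and Idi1, mevalonate genes that met the same rule for display, lacked the core. CCAAT was in 22 of the 34 (64.7%) against 37.4% of all windows, and GGGCGG in 26 of the 34 (76.5%) against 35.7%. The share of windows with GGGCGG also depends on their GC content, which was not matched. A match is a run of letters, not a measured site.

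Recovered reads per library ranged from 1773226 to 15008466 over the developmental libraries and from 1859933 to 6352384 at P28. In hippocampus they ranged from 5098757 to 8986015 at P1 and from 2539583 to 4248087 at P14. In olfactory bulb the ranges were 5473837 to 9062118 at P1 and 1773226 to 2669394 at P14. Every P14 library of these regions was thus shallower than every P1 library, while the cortex ranges overlapped. The ribosomal transcript Rn45s took 13.7% to 38.0% of reads in all but hippocampus cKO replicate 2 (0.594%) and olfactory bulb control replicate 2 (0.476%), both at P28, and these libraries stand apart in several results below. From P1 to P14 astrocyte markers were called higher for 11 of 12 in cortex and 12 of 12 in hippocampus and in olfactory bulb. Their summed level went from 23060–30212 to 517083–575805 normalized reads in cortex, while hippocampus went from 14452–16868 to 441819–476819 and olfactory bulb from 5305–7468 to 132936–150550. Neuron markers were lower for 10 of 12 in cortex and in hippocampus and for 9 of 12 in olfactory bulb, where 1 was higher.

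In each region the majority of the 33 genes was more abundant at P14 than at P1, and 16 were higher in all 3 regions. In cortex 25 of the 33 were higher and 2 lower (limma on log2(normalized reads + 1), Benjamini-Hochberg adjusted p under 0.05, which is what "called" means below), where 24.0% of all 11822 genes tested were higher and 40.3% lower. In hippocampus 23 were higher and none lower, where 21.0% of genes were higher and 28.5% lower. No gene of the 33 was lower in hippocampus at an unadjusted p under 0.05 either, and edgeR and DESeq2 called none lower. In olfactory bulb 18 were higher and 3 lower, against 24.8% and 31.4% of genes. The median change of the 33 was 0.78 (cortex), 1.11 (hippocampus) and 0.70 (olfactory bulb) on the log2 scale, while the median tested gene moved by -0.27, -0.29 and -0.24. Over all cortex genes limma called 2843 higher and 4765 lower, and edgeR on recovered reads 3592 and 3816. With TMM scaling the median gene moved by 0.01 in cortex but still by -0.27 in hippocampus and -0.24 in olfactory bulb, and every call named below for P14 against P1 kept its sign under TMM and quantile scaling. The plot of changes by gene and region gives every value with its interval.

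**Figure D1:**
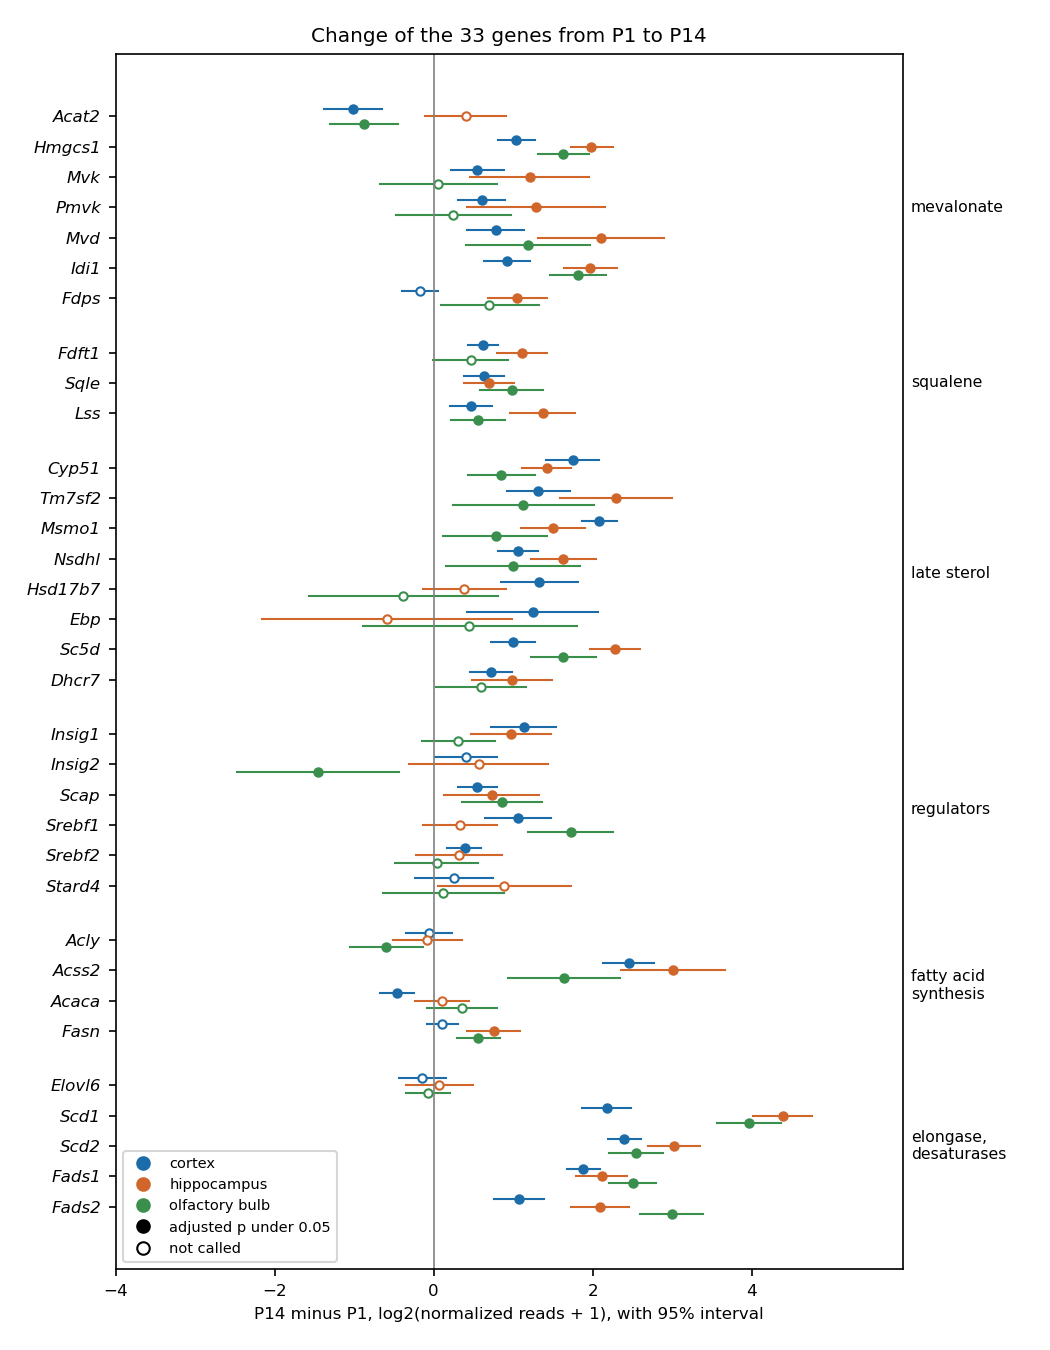
Change from P1 to P14 of the 33 genes, as the difference in mean log2(normalized reads + 1) with its 95% interval, coloured by region and ordered by role; filled points had an adjusted p under 0.05. Scd1, Scd2, Fads1 and Fads2 lie to the right of 1 in all 3 regions, and Acat2 lies left of 0 in cortex and olfactory bulb.

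The genes higher in all 3 regions numbered 16: Hmgcs1, Mvd, Idi1, Sqle, Lss, Cyp51, Tm7sf2, Msmo1, Nsdhl, Sc5d, Scap, Acss2, Scd1, Scd2, Fads1 and Fads2. That is 16 of 33, and 14% of the 10838 genes tested in every region were higher in all of them. None of the 33 was lower in all 3, while 17.8% of those genes were. Stard4, which carries cholesterol between membranes, and Elovl6, which extends palmitate, were called in no region. None of the 33 was called higher in one region and lower in another. The shares of all genes tested with such opposite calls, or with no call in any region, were not counted. Of the 16, 11 were called in every alternative setting and with any 1 library left out, and Mvd, Tm7sf2, Msmo1, Nsdhl and Scap lost a call in 1 region (Mvd in olfactory bulb, without P1 replicate 1).

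Among the mevalonate genes, the change from P1 to P14 was called higher for 5 of 7 (cortex), 6 of 7 (hippocampus) and 3 of 7 (olfactory bulb). Hmgcs1 makes HMG-CoA, the substrate of the rate-limiting step. In cortex its normalized reads were 3006, 3128 and 3433 at P1, 5138, 6567 and 7127 at P7 and 6065, 6854, 6609 and 6692 at P14. Every P7 and P14 library lay above every P1 library, and the P14 mean was higher than P1 by 1.04 (SE 0.11, adjusted p = 1.64e-06). Mevalonate diphosphate decarboxylase, Mvd, had the largest rise of this group in hippocampus, with 26.7, 41.0 and 25.2 at P1 and 124, 133 and 142 at P14. Those ages did not overlap, and the difference was 2.10 (SE 0.36, adjusted p = 5.26e-04). Idi1, which isomerizes the isoprenoid unit, led in olfactory bulb with 184, 204 and 199 at P1, 393, 444 and 300.2 at P7 and 694, 728 and 646 at P14. Its 3 ages stood fully apart, and P14 was above P1 by 1.81 (SE 0.16, adjusted p = 4.73e-06).

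Acat2, the cytosolic thiolase that joins acetyl-CoA units at the head of the route, went the other way in 2 regions. Cortex libraries held 363, 232 and 242 normalized reads at P1 and 125, 125, 137 and 156 at P14, and Acat2 fell by 1.01 (SE 0.17, limma adjusted p = 1.40e-04). In olfactory bulb the values were 142, 167 and 162 and 81.5, 97.9 and 76.4, and the gene fell by 0.88 (SE 0.19, adjusted p = 0.00273). The hippocampus change was 0.40 (SE 0.23) and was not called. The kinases Mvk and Pmvk, which act in sequence on mevalonate, rose in cortex and hippocampus, with changes of 0.55 and 0.61 in cortex and 1.21 and 1.28 in hippocampus. In olfactory bulb their changes were 0.06 and 0.24 and neither was called. The hippocampus calls were lost without P1 replicate 1 (both genes) or P1 replicate 2 (Pmvk). Fdps, which makes farnesyl diphosphate, was called in hippocampus alone (1.05, SE 0.17, against -0.17, SE 0.10, in cortex and 0.70, SE 0.28, in olfactory bulb). In Fdps, 26.7% of exon bases in GENCODE M21 are shared with Gm43738 on the same strand, so its reads could be split between them.

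The 3 squalene genes were all higher at P14 in cortex and hippocampus, as were Sqle and Lss in olfactory bulb. Sqle, squalene epoxidase, counts as the other rate-limiting enzyme of sterol synthesis. Its cortex libraries held 545, 523 and 549.6 normalized reads at P1, 697, 927 and 1018 at P7 and 819, 788, 808 and 944 at P14. P1 libraries were the lowest, with no overlap, and P14 exceeded P1 by 0.63 (SE 0.12, adjusted p = 3.60e-04). In olfactory bulb Sqle stood at 239, 248 and 248 at P1 and 417, 561 and 482 at P14, a change of 0.98 (SE 0.18, adjusted p = 7.93e-04). Lanosterol synthase, Lss, which closes the rings, had the largest hippocampus change of the group, from 314, 357 and 313 to 832, 1085 and 670.0, or 1.37 (SE 0.19, adjusted p = 9.64e-05). Fdft1, squalene synthase, changed by 0.62 in cortex and 1.11 in hippocampus, both called, and by 0.47 in olfactory bulb (adjusted p = 0.0869). In the annotation 18.3% of Fdft1 exon bases lie opposite Ctsb, and no strand setting for the counting is given, so part of its reads could belong to Ctsb.

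Late sterol genes, which turn lanosterol into cholesterol, were called higher for 8 of 8 (cortex), 6 of 8 (hippocampus) and 5 of 8 (olfactory bulb), with median changes of 1.28, 1.46 and 0.81. Msmo1, the sterol C4 methyl oxidase, had the largest rise in cortex: 181, 195 and 171 normalized reads at P1, 469.7, 536 and 628 at P7 and 791, 768, 786 and 752 at P14. These 3 ages did not overlap, and the change was 2.08 (SE 0.10, adjusted p = 1.73e-09). Tm7sf2, a sterol C14 reductase, led in hippocampus, from 21.7, 29.0 and 25.8 at P1 to 193, 104 and 104 at P14, a change of 2.29 (SE 0.32, adjusted p = 1.19e-04). It shares 12.1% of its exon bases with Vps51 on the same strand. Sc5d, which adds the C5 double bond, led in olfactory bulb, from 139.8, 166 and 178 through 222, 303 and 282 at P7 to 600.3, 487 and 423, a change of 1.63 (SE 0.19, adjusted p = 2.86e-05). Each age stood apart from the next. The C14 demethylase Cyp51 and the C4 dehydrogenase Nsdhl rose in every region, Cyp51 by 1.75, 1.42 and 0.85 and Nsdhl by 1.06, 1.63 and 1.00 (cortex, hippocampus and olfactory bulb in turn). In olfactory bulb Nsdhl held 65.6, 73.1 and 61.8 normalized reads at P1 and 256, 84.1 and 112 at P14, and its call was lost in 7 of 17 alternatives: no filter, 2 ages only, and without any 1 P1 library, P7 replicate 1 or P14 replicate 1 (changes from 0.54 to 1.34). The olfactory bulb calls of Msmo1 and Tm7sf2 were also lost in 7 of 17 each, Msmo1 without P1 replicate 1 or 3, P7 replicate 1 or P14 replicate 1 or 2, and Tm7sf2 without any 1 P1 library, P7 replicate 2 or P14 replicate 3. Dhcr7, the last reductase of the route that makes cholesterol through 7-dehydrocholesterol, rose in cortex (0.72) and hippocampus (0.99). Hsd17b7, a 3-ketosterol reductase, and Ebp, a sterol isomerase, were called in cortex alone, with changes of 1.33 and 1.25, the latter lost without P1 replicate 3. Ebp was scarce, at 16.2, 11.8 and 8.72 normalized reads in cortex at P1 and 8.60, 1.10 and 12.5 in hippocampus at P14, and it had the largest SE of the late sterol genes in each region (0.38, 0.72 and 0.61).

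Among the 6 regulators 4 were called higher in cortex, and 2 each in hippocampus and olfactory bulb, where 1 was lower. Srebf1, whose SREBP-1 products drive mainly fatty acid genes, held 100.3, 137 and 155 normalized reads in cortex at P1, 352, 294 and 201 at P7 and 323, 249.7, 253 and 259 at P14. It was higher at P14 than at P1 with no overlap, by 1.06 (SE 0.19, adjusted p = 2.70e-04). In olfactory bulb it stood at 64.5, 85.0 and 75.6 at P1, 92.2, 95.1 and 58.7 at P7 and 256, 207 and 293 at P14. Only the P14 libraries were high there, and the change was 1.73 (SE 0.24, adjusted p = 1.27e-04). The hippocampus values of Srebf1, 115, 127 and 100.1 at P1 and 181, 121 and 134 at P14, overlapped and were not called (0.33, SE 0.22). Srebf2, whose product drives mainly cholesterol genes, was called in cortex only, from 373, 336 and 337 at P1 to 428, 451, 469.6 and 475 at P14, or 0.39 (SE 0.10, adjusted p = 0.00362). Its values were 216, 321 and 206 and 437, 223 and 285 in hippocampus, while olfactory bulb held 202, 192 and 173 and 237, 125 and 244, with overlap of the ages in both.

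Insig1, itself a known SREBP target whose product retains SCAP, rose in cortex from 275, 296 and 369 at P1 through 436, 731 and 766 at P7 to 751, 828, 615 and 559 at P14. The change was 1.13 (SE 0.19, adjusted p = 1.59e-04), without overlap of P1 and P14. Hippocampus values were 475, 341 and 394 and 601, 866 and 926, a change of 0.97 (SE 0.23, adjusted p = 0.00417). In olfactory bulb P14 stood at 306, 313 and 339 against 218, 283 and 276 at P1, and the difference of 0.31 (SE 0.21) was not called. Its relative Insig2 fell in olfactory bulb alone, from 36.6, 37.0 and 45.2 at P1 to 21.9, 5.51 and 20.8 at P14, by 1.45 on the log2 scale (SE 0.46, adjusted p = 0.0203). Scap, the SREBP escort, rose in all 3 regions (0.55, 0.73 and 0.86), and in hippocampus P1 and P14 overlapped, with 167, 196 and 152 and 306, 420.1 and 177. The hippocampus call of Scap held in 7 of 17 alternatives, and was lost with no filter, with 2 ages only and without any 1 P1 or P7 library or P14 replicate 1 or 2 (changes from 0.45 to 1.07).

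Of the 4 genes that make palmitate, Acss2 was the one called higher in all 3 regions. Acss2, which makes acetyl-CoA from acetate, held 49.2, 60.7 and 70.0 normalized reads in cortex at P1, 155, 166 and 175 at P7 and 387, 296, 289.8 and 354 at P14. Those ages did not overlap, and P14 exceeded P1 by 2.45 (SE 0.15, adjusted p = 1.11e-08). Hippocampus went from 47.7, 40.1 and 56.5 to 620.2, 288 and 331, a change of 3.01 (SE 0.30, adjusted p = 8.01e-06). Olfactory bulb went from 16.8, 20.7 and 21.0 to 79.5, 68.9 and 44.4, or 1.64 (SE 0.32, adjusted p = 0.00125). Acaca, the acetyl-CoA carboxylase that commits carbon to fatty acids, fell in cortex from 818, 811 and 791 at P1 to 563, 689, 593 and 509 at P14, by 0.46 (SE 0.10, adjusted p = 0.00103). With TMM scaling, edgeR or DESeq2 Acaca was not called and 1 of the 33, Acat2, was lower in cortex. Acly, which makes acetyl-CoA from citrate, fell in olfactory bulb from 259.9, 268 and 294 to 241, 132 and 185, by 0.60 (SE 0.21, adjusted p = 0.0282), with changes of -0.06 and -0.08 in cortex and hippocampus. Without olfactory bulb P1 replicate 2 or 3, Acat2 was the 1 gene lower there and the calls of Acly and Insig2 were lost, that of Acly also without P1 replicate 1 or P14 replicate 2 and by edgeR. Fasn, fatty acid synthase, rose in hippocampus (0.76) and olfactory bulb (0.56), and its cortex change of 0.11 (SE 0.09) was not called.

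The 4 desaturases rose in all 3 regions, and Scd1 had the largest change of the 33 genes in hippocampus and olfactory bulb. Scd1 and Scd2 place the first double bond, making oleate and palmitoleate, and Fads1 and Fads2 make arachidonate and docosahexaenoate from dietary precursors. Scd1 in cortex held 1327, 2017 and 1998 normalized reads at P1, 4757, 5354 and 4039.6 at P7 and 7367, 7992, 7471 and 8878 at P14, a P1 to P14 change of 2.18 (SE 0.14, adjusted p = 2.28e-08). In hippocampus it went from 323, 243 and 313 through 1892, 1329 and 2059 to 5979, 6228 and 6084, a change of 4.39 (SE 0.17, adjusted p = 4.12e-09). Olfactory bulb went from 104, 102 and 92.1 through 215, 300.2 and 209 to 1890.3, 1496 and 1362, or 3.97 (SE 0.18, adjusted p = 5.59e-08). The 3 ages stood apart in each region, and the hippocampus change of Scd1 corresponds to 20.9-fold.

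Scd2 rose in cortex from 4963, 4402 and 4456 at P1 through 15783, 18774 and 14714 at P7 to 24138, 23504, 23599 and 25609.8 at P14, by 2.39 (SE 0.10, adjusted p = 2.71e-10). In hippocampus it stood at 2795, 3405 and 2612 at P1 and 22621, 22694 and 25982 at P14, a change of 3.02 (SE 0.15, adjusted p = 3.38e-08). The olfactory bulb values were 1521, 1922 and 1894 at P1, 2468, 2852 and 1889 at P7 and 9805, 10949.7 and 10132 at P14. There P1 and P7 overlapped, and all of the 2.54 (SE 0.16, adjusted p = 3.72e-07) rise but 0.42 fell between P7 and P14. Scd1 and Scd2 are close paralogs beside further Scd copies, so reads shared between them could have been assigned to either or dropped. Fads1 rose by 1.88, 2.11 and 2.50 and Fads2 by 1.07, 2.09 and 2.99 (cortex, hippocampus and olfactory bulb in turn). The plot of levels by age shows these genes beside Elovl6, whose changes were -0.15, 0.07 and -0.07.

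**Figure D2:**
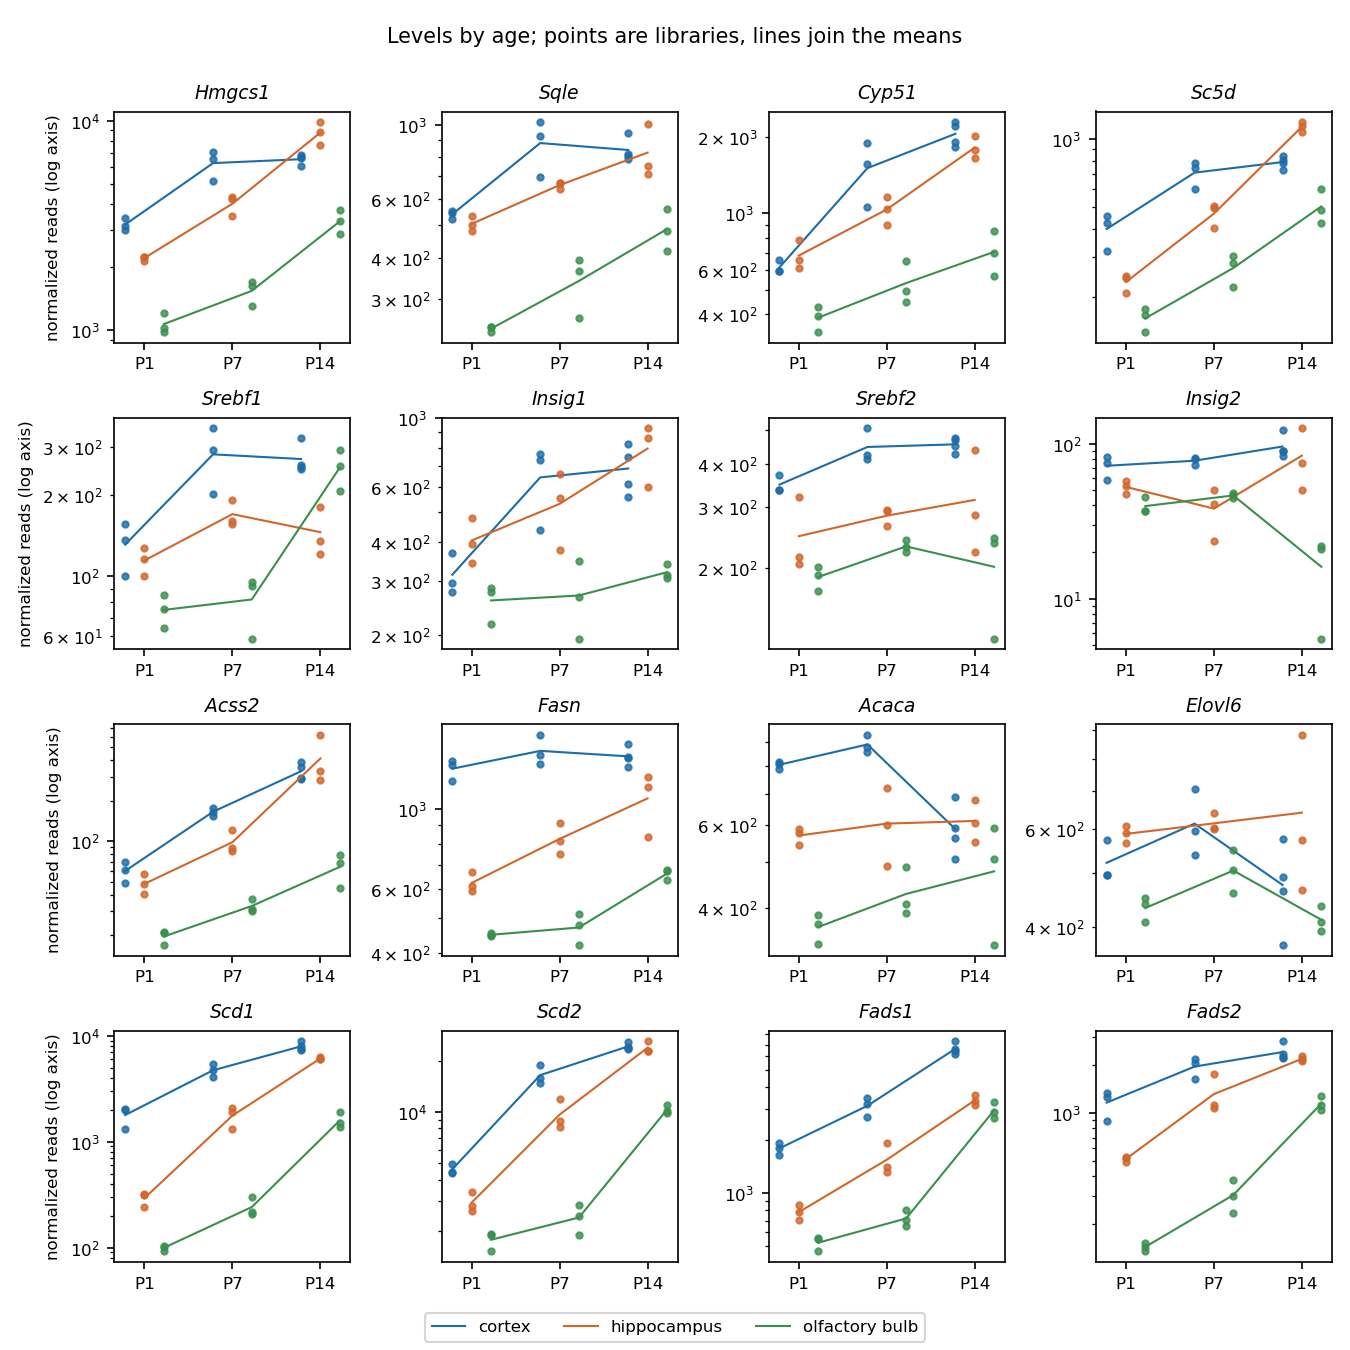
Normalized reads (log axis) of 16 of the 33 genes at P1, P7 and P14; points are libraries, coloured by region, and lines join the group means. Scd1, Scd2 and Fads1 were called at both steps in cortex and hippocampus. In olfactory bulb Srebf1, Scd2 and Fads1 were called between P7 and P14 and not before. The P1 and P7 libraries of Fads1 did not overlap there, and 7 of 17 alternatives called its first step. Regions were scaled in separate tables, so heights are not compared between them.

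Markers of other cells moved over the same ages. Markers of mature oligodendrocytes, which make cholesterol for myelin, were higher at P14 for 10 of 11 tested (cortex), 5 of 5 (hippocampus) and 5 of 7 (olfactory bulb). Their summed level, over 12 genes, went from 382–453 to 15847–26677 normalized reads in cortex, while hippocampus went from 105–113 to 1686–2422 and olfactory bulb from 137–246 to 2051–2314. Opalin was at 0 in every P14 library of hippocampus and olfactory bulb, as were Mog in hippocampus and Mag in olfactory bulb. Microglia markers were higher for 11 of 12 (cortex), 5 of 8 (hippocampus) and 5 of 6 (olfactory bulb), and endothelial markers for 9 of 9 in olfactory bulb, from 23.8–29.8 to 358–1845 summed reads. In cortex 2 of 10 endothelial markers were higher and 0 lower, and in hippocampus 1 of 8 was higher and 2 lower. Choroid plexus and ependyma markers were higher for 3 of 4 tested in hippocampus, where their sum over 7 genes went from 44.1–83.3 to 4047–8474 and Ccdc153 was at 0 in every P14 library. That sum was 25.6–1116 and 59.9–693 in cortex and 19.7–26.9 and 37.5–57.9 in olfactory bulb. Mural cell markers were higher for 5 of 5 in olfactory bulb, from 78.2–117 to 453–1589 summed reads, and for 1 of 5 in each other region. Another 1 of 5 was lower in hippocampus. Cycling-cell markers were lower for 7 of 7 (cortex), 6 of 8 (hippocampus) and 1 of 7 (olfactory bulb), and their sum over 8 genes went from 1303–1934 to 122–280 in cortex. Precursors of oligodendrocytes had 3 markers higher and 3 lower of 8 in cortex, 2 and 2 of 7 in hippocampus and 4 and 1 of 7 in olfactory bulb. Their part in the changes of the 33 genes, and that of the neuron markers, was not tested. In bulk libraries fewer cells of a type and less RNA per cell cannot be told apart.

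The 2 age steps were then taken one by one. In cortex 21 of the 33 were already higher at P7 than at P1 and none was lower, against 15.6% and 18.1% of genes. edgeR and DESeq2 called none lower there either, and at an unadjusted p under 0.05 limma found 1, Acat2, with a change of -0.48. Between P7 and P14 11 were higher and 7 lower in cortex, against 18.6% and 31.3% of genes. In hippocampus 14 were higher at each step and none lower, where 11.2% and 12.5% of genes were higher and 6.92% and 17.7% lower. At an unadjusted p limma found 1 lower (Acly) at the first hippocampus step and 0 at the second, edgeR called 0 and 0, and DESeq2 called 1 and 0. In olfactory bulb 5 were higher at P7, against 7.59% of genes, and none lower, against 2.98%, with 0 lower at an unadjusted p and 0 by edgeR and DESeq2. Between P7 and P14, 13 were higher and 2 lower in olfactory bulb, against 20.4% and 26.6% of genes. The 3 comparisons of a region share libraries, so their calls are not independent, and the difference in timing between regions was not tested.

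In cortex the genes that were higher at P7 included all 3 squalene genes and 7 of the 8 late sterol genes, with medians of 0.69 and 1.11. The same groups had medians of -0.05 and 0.41 between P7 and P14. Dhcr7 showed the clearest peak at P7, with 109, 139.8 and 153 normalized reads at P1, 332, 365 and 359.8 at P7 and 227, 221, 214 and 216 at P14. It rose by 1.40 (SE 0.13) and then fell by 0.68 (SE 0.12), and the 3 ages did not overlap. Acat2, Fdps, Nsdhl, Stard4, Acaca and Elovl6 were the other genes lower at P14 than at P7 in cortex. Fads1 and Acss2 had the largest rises of that second step in cortex (1.08 and 0.99), and Mvk, Pmvk and Mvd, whose P7 values were close to P1 (changes of 0.02, -0.02 and 0.18), rose there by 0.53, 0.63 and 0.59. Leaving out cortex P7 replicate 1, which had the fewest normalized reads of Hmgcs1, Idi1, Sqle, Lss and Cyp51 among the P7 libraries, gave 6 higher and 8 lower for that step. Without P7 replicate 2, P7 replicate 3 or P14 replicate 1, 3, 2 and 4 were lower. With TMM scaling, edgeR or DESeq2 2 were lower, Acaca and Dhcr7.

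In olfactory bulb the 5 genes already higher at P7 were Hmgcs1, Idi1, Sc5d, Scd1 and Fads2, with changes of 0.52, 0.93, 0.73, 1.25 and 1.05. Genes called at the second step and not at the first included Srebf1 (1.63, SE 0.24), Scd2 (2.12, SE 0.16) and Fads1 (2.04, SE 0.13), and Scd1 rose a further 2.71 (SE 0.18). For Fads1 the first step was called in 7 of 17 alternatives, with changes from 0.38 to 0.58 over all of them. Its P1 libraries (467, 553 and 550 normalized reads) did not overlap those of P7 (704, 801 and 653). Insig2 fell by 1.68 (SE 0.46) over the same step. In hippocampus Scd1 rose by 2.57 and then 1.82, and Hmgcs1 by 0.86 and then 1.13. Acss2 rose by 1.01 and then 1.99. Under quantile normalization the second-step change was 1.09 for Scd1 and 0.26 for Hmgcs1, which was no longer called, and 8 of the 33 were higher at that step in hippocampus. The plot of both steps by role sets these side by side.

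**Figure D3:**
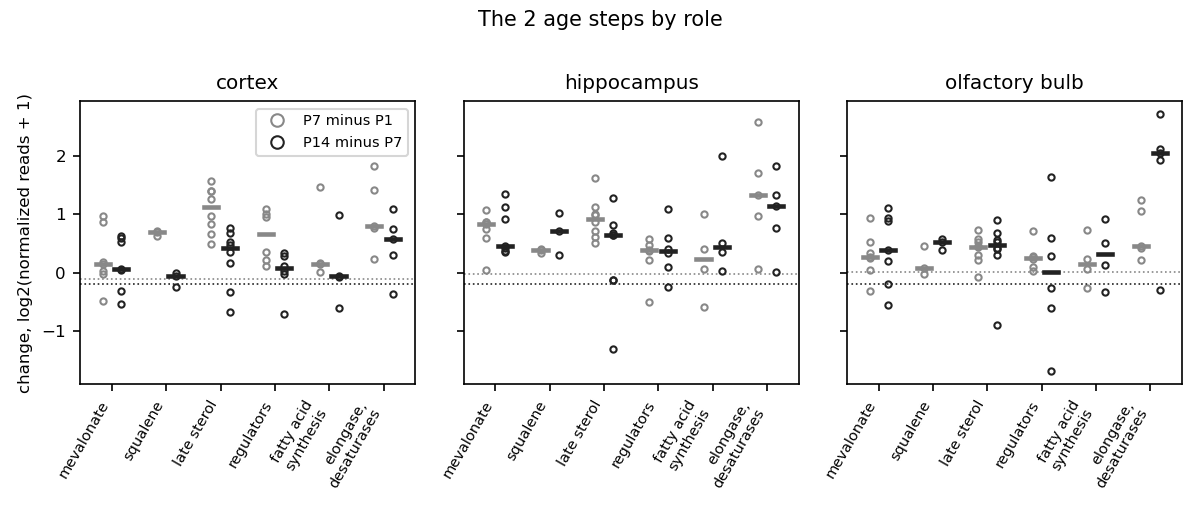
Change of each of the 33 genes from P1 to P7 (grey) and from P7 to P14 (black), in log2(normalized reads + 1), by role and region; circles are genes, bars their medians and dotted lines the median of all tested genes. In cortex the late sterol median is 1.11 for the first step and 0.41 for the second, and in olfactory bulb the desaturase group moves from 0.46 to 2.04.

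A joint fit asked whether the P1 to P14 change itself differed between regions (limma F test over the 3 changes). It was called for 19 of the 33 genes, where 30.8% of the 10838 genes tested in all regions were called. Scd1 differed most: its change was larger than in cortex by 2.21 (SE 0.24) in hippocampus and by 1.79 (SE 0.24) in olfactory bulb, with an adjusted F p of 7.46e-08. For Fads2 the excess over cortex was 1.02 (SE 0.24) in hippocampus and 1.91 (SE 0.24) in olfactory bulb (adjusted p = 2.98e-06). Sc5d, Idi1 and Hmgcs1 likewise rose more in hippocampus than in cortex, by 1.28 (SE 0.21), 1.05 (SE 0.21) and 0.94 (SE 0.18). Msmo1 and Cyp51 had the opposite order, with olfactory bulb changes below those of cortex (-1.31, SE 0.29, and -0.90, SE 0.24). Srebf1 rose more in olfactory bulb than in hippocampus by 1.40 (SE 0.32), and the olfactory bulb minus hippocampus difference of Insig2 was -2.01 (SE 0.52). Scap, Elovl6 and Srebf2 gave the highest adjusted p values (0.69, 0.724 and 0.594), with region differences between -0.35 and 0.31.

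Genes next to the 33 on the same routes were read from lists that hold none of them. On the fatty acid side, 17 of 25 tested were higher and 1 lower from P1 to P14 in cortex, 15 higher and 2 lower of 25 in hippocampus, and 15 higher and none lower of 23 in olfactory bulb (limma; median changes 1.57, 1.46 and 1.38). Elovl2 and Elovl5, which extend polyunsaturated fatty acids between the FADS steps, were among those higher in all 3 regions, with changes of 2.14, 2.71 and 2.36 and of 2.34, 2.01 and 2.79 in cortex, hippocampus and olfactory bulb. The acyl-CoA synthetases Acsbg1 (2.88, 3.61 and 4.71), Acsl3 (3.61, 2.64 and 1.80) and Acsl6 (3.53, 3.70 and 2.84) rose as well. So did Me1, malic enzyme and a source of NADPH, by 1.40, 3.60 and 3.59. The remaining genes higher in all 3 were Hacd2, Hacd3, Hsd17b12 and Tecr, which complete each round of elongation, and Mid1ip1, which binds acetyl-CoA carboxylase. On the sterol and isoprenoid side the list was mixed, with 5 higher and 2 lower of 14 in cortex, 7 against 2 in hippocampus and 3 against 3 in olfactory bulb (median changes 0.19, 0.56 and 0.20). Cyb5b, a cytochrome b5, was the one higher in all 3. Coq2, of ubiquinone synthesis, rose in cortex and hippocampus (1.25 and 1.21), and 0610007P14Rik led in hippocampus (1.47). Lbr, which carries a C14 reductase like Tm7sf2, fell by 1.58 in cortex and fell by 2.23 in olfactory bulb, where Pdss1 fell by 2.52.

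At P28 no gene of the 33 differed between cKO and control in any region at an adjusted p under 0.05. The targeted gene itself ranged from 89.8 to 211 normalized reads in cKO against 927 to 1930.1 in control cortex, from 152 to 379.9 against 779.8 to 824 in hippocampus, and from 63.6 to 99.5 against 184 to 318 in olfactory bulb. Gabbr1 was called in cortex (-3.45, limma adjusted p = 4.40e-05). Its change was not called in hippocampus (-1.84, limma adjusted p = 0.936) or olfactory bulb (-1.48, adjusted p = 0.877), though the genotypes did not overlap. Over all genes, 0.00982% of 10188 were called in cortex (Gabbr1 alone), 0% of 11639 (hippocampus) and 0% of 11539 (olfactory bulb). edgeR called 1, 0 and 0 genes in the same order and DESeq2 1, 1 and 22. At an unadjusted p under 0.05, limma found 1 of the 33 in cortex and none in the other regions, where 2.17%, 2.54% and 3.02% of genes in cortex, hippocampus and olfactory bulb passed. edgeR found 1, 0 and 0 and DESeq2 1, 1 and 0 at that level, and neither called any after adjustment. None of the 12 astrocyte markers was called either, and their summed level was 183406–314722 in control and 158384–290494 in cKO cortex, 168842–188998 and 135522–410986 in hippocampus, while olfactory bulb held 103108–148681 and 127773–145066. Choroid plexus and ependyma markers summed to 67731–139034 normalized reads in control and 11252–126886 in cKO hippocampus, and their part in these comparisons was not tested. The median change of the 33 was 0.05 (cortex), 0.12 (hippocampus) and 0.03 (olfactory bulb). The 95% interval of the change lay within 1 log2 unit of 0 on both sides for 26 genes (cortex), 11 genes (hippocampus) and 16 genes (olfactory bulb), and wider for the others.

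Stard4, a sterol carrier, was the cortex gene with an unadjusted p under 0.05. Its control libraries held 33.8, 37.4, 41.7 and 13.1 normalized reads and its cKO libraries 127, 50.4, 79.9 and 29.7. One cKO library fell among the controls, and the change was 1.09 (SE 0.48, unadjusted p = 0.0381, limma adjusted p = 1). It was not among the genes under 0.05 once the deposit round was a term of the fit.

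The genotypes did not overlap for 6 of the 33 genes in hippocampus, all with cKO above control (Acat2, Sqle, Msmo1, Dhcr7, Acaca and Elovl6), against 7.08% of all genes tested above and 7.92% below. In olfactory bulb Tm7sf2, Scap and Srebf2 lay above and Fdps and Sqle below without overlap, against 5.30% and 4.71% of genes, and in cortex no gene of the 33 did, against 0.864% and 1.03%. None of these differences was called, and the Tm7sf2 change, 1.11 with all libraries, had an unadjusted p of 0.039 without olfactory bulb control replicate 2 (1.17, SE 0.44, limma adjusted p = 0.986). Sqle stood apart in opposite directions in the 2 regions, an observation made after its values were seen. In hippocampus its controls held 348 and 371 normalized reads and its cKO libraries 536, 2445, 458 and 524. All 4 cKO libraries lay above both controls, and the change was 1.06 (SE 0.61, limma adjusted p = 0.936). In olfactory bulb the controls held 413, 422 and 343 and the cKO libraries 301, 254 and 331. There all cKO libraries lay below all controls, with a change of -0.41 (SE 0.24, adjusted p = 0.877). Without hippocampus cKO replicate 2 the change was 0.49 (SE 0.21, adjusted p = 0.835). Without olfactory bulb control replicate 2 it was -0.36 (SE 0.18, adjusted p = 0.986). In cortex the genotypes overlapped, at 662, 481, 594 and 543 in control and 439.8, 652, 797 and 521 in cKO.

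The deposit round moved with the level of several cortex genes at P28. Scd1 held 3426, 2997, 1879 and 1106 normalized reads in controls 1 to 4 and 3463, 2267, 1790.1 and 945 in cKO 1 to 4, where controls 3 and 4 and cKO 4 are of the later round. The later libraries were the lowest of each genotype. The same held for Scd2, with 10947, 10287, 6459 and 5069.6 in controls and 9819.9, 8561, 7563 and 3914 in cKO, and in all for 12 of the 33 genes (36.4%), against 14.3% of all 10188 genes tested. These were Hmgcs1, Idi1, Lss, Cyp51, Nsdhl, Sc5d, Srebf2, Acaca, Scd1, Scd2, Fads1 and Fads2. Msmo1 and Elovl6 were higher in the later round in both genotypes, 2 of 33 (6.06%) against 12.3% of all genes tested. Tamoxifen is labelled for the later round alone, and the later cortex libraries also bear the highest library numbers of the cortex set. Round, treatment label and library number therefore cannot be told apart in cortex.

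Within rounds, the cKO minus control difference of Scd1 was -0.41 in the first and -0.61 in the later round, and that of Scd2 was -0.30 and -0.55. For Fads1 the values were -0.30 and -0.49, for Fads2 -0.33 and -0.35, and for Cyp51 -0.52 and -0.43. With the round as a term, these 5 had unadjusted p values under 0.05 and none was called (limma adjusted p = 0.743 for each). They were picked by that level, and the share of all genes passing it in this fit is not given here. The later round holds a single cKO library of cortex, so its values have no spread of their own. Srebf1 and Srebf2 overlapped between genotypes in cortex, with 115, 243, 208 and 236 against 248, 258, 190.2 and 232 and 341, 390.0, 284 and 222 against 328, 331, 411 and 214. Insig1 did too, with 549, 796, 569 and 468 in control and 528, 609, 627 and 449 in cKO.

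**Figure D4:**
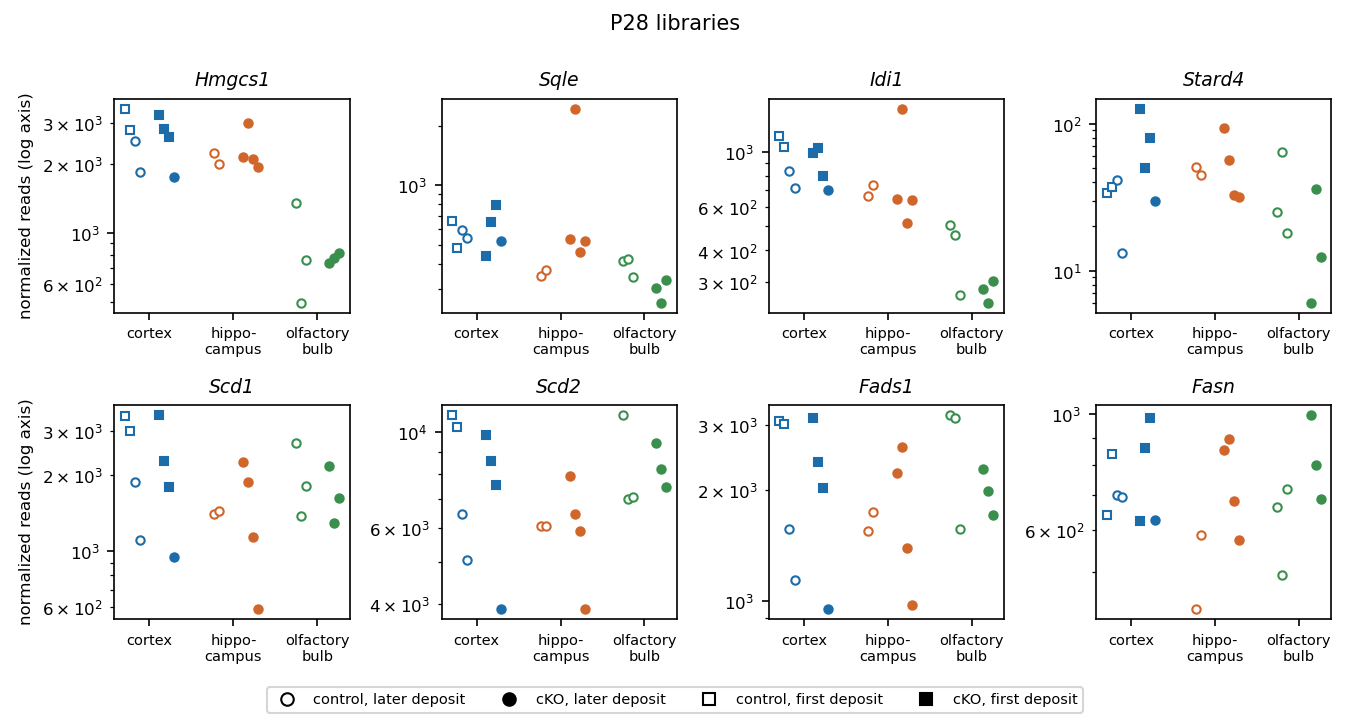
Normalized reads (log axis) of 8 genes in each P28 library; open symbols are control, filled symbols cKO, squares the first deposit round and circles the later one, coloured by region. The cortex circles lie lowest for Scd1, Scd2, Fads1 and Hmgcs1 in both genotypes, and hippocampus cKO replicate 2 lies far above the rest for Sqle and Idi1.

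Hippocampus cKO replicate 2, the library low in Rn45s, was the highest of the 6 hippocampus libraries for 18 of the 33 genes and the lowest for 7, where 34% and 36.3% of all genes tested were highest and lowest in it. It held 1488 normalized reads of Idi1 against 516 to 737 in the others, and 846 of Lss against 234 to 345. Mvk, Pmvk, Mvd, Tm7sf2 and Srebf1 were among its lowest, the last at 86.7 against 164 to 289. Olfactory bulb control replicate 2, the other library low in Rn45s, had 1.70 normalized reads of Mvk and of Pmvk against 20.8 and 49.4 for Mvk and 17.0 and 45.9 for Pmvk in the other controls. It had 6.81 of Dhcr7 against 53.0 and 102. Scd1 in hippocampus was 1396 and 1436 in control and 2248, 1871, 1135 and 588 in cKO, and in olfactory bulb 2688, 1382 and 1813 and 2175, 1291 and 1624, with overlap in both. Scd2 overlapped as well, at 6076 and 6069 and 7903, 6478, 5905 and 3898 in hippocampus, while olfactory bulb held 10922, 7011 and 7073 and 9428, 8201 and 7453. Insig1 held 314 and 585 and 468, 560.4, 494 and 387 in hippocampus, while olfactory bulb held 265, 507 and 279 and 242, 309.6 and 317, again overlapping. Srebf1 stood at 231, 191 and 489 in control and 376, 481 and 493 in cKO olfactory bulb (change 0.68, SE 0.34, adjusted p = 0.877). Srebf2 stood at 232, 100.4 and 221 and 249, 234 and 287 there, where the cKO libraries were above the controls (0.56, SE 0.34, adjusted p = 0.877) and the lowest control was replicate 2.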

How the data were processed

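The data were bulk RNA-seq of 48 astrocyte libraries made from low-input total RNA, per the labels' protocols. The authors deposited 6 tables of normalized signal, 2 per region: 1 of the 3 ages and 1 of the P28 genotypes. In each library the deposited values were whole multiples of 1 step (tolerance 0.01 read, 100% of values), so they are read counts divided by 1 factor per library. Per the submitters' processing notes, mm10, STAR 2.5.0a, DESeq2 1.20.0, FastQC and MultiQC were used; the counting tool, annotation and strand setting are not given in the sources used here.

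Genes with a table mean of at least 10 were transformed as log2(value + 1), which understates the change of low genes, and tested two-sided with limma 3.58.1 (trended eBayes, R 4.3.3) within a table, the 3 ages in 1 fit and P28 in its own. p-values were adjusted by Benjamini-Hochberg over all genes tested. Region differences used 1 joint limma fit of the 3 P14 minus P1 changes, each taken within its own table. edgeR 4.0.16 (quasi-likelihood) and DESeq2 1.42.0 on recovered reads (7408 and 7471 genes called for P14 against P1 in cortex, where limma called 7608), other pseudocounts (0.1 and 8), no filter, TMM and quantile scaling, fits of 2 ages only, the deposit round as a term and each library left out were alternatives; leaving out libraries in the region fit was added after seeing the data. The limma, edgeR and DESeq2 code was tested on simulated counts. Motifs were matched with a Python 3.11.15 script in RefSeq windows of GRCm38.p6; exon overlaps came from GENCODE M21, whose use by the authors is not stated.

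The 33 genes and all gene lists were chosen with earlier results of these data known. All 33 are named; values per library are given for Srebf1, Srebf2, Insig1, Scd1 and Scd2 and, by role and region, for the called gene with the largest rise and the largest fall from P1 to P14, and at P28 genes with an unadjusted p under 0.05 are named. From the companion lists, genes are named that were called the same way in all 3 regions or were among the 2 largest called changes of a list in a region; 1 gene that meets this rule is not reported here. Read depth limits precision most for scarce genes such as Ebp.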

Additional observations from a re-analysis of the deposited data

Results flagged for a closer look

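The P1 to P14 change of 19 genes differed between regions in the joint limma F test (adjusted p in brackets). On the sterol route these were Acat2 (4.87e-04), Hmgcs1 (5.18e-04), Mvd (0.0304), Idi1 (6.40e-04), Fdps (0.00171), Lss (0.00404), Cyp51 (0.0167), Msmo1 (0.00406), Hsd17b7 (0.0475) and Sc5d (1.56e-04). Among the regulators Insig2 (0.00522) and Srebf1 (0.00438) differed. On the fatty acid route they were Acss2 (0.0143), Acaca (0.0137), Fasn (0.00952), Scd1 (7.46e-08), Scd2 (0.0347), Fads1 (0.026) and Fads2 (2.98e-06).

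At P28 every hippocampus cKO library held more Sqle than every control (log2 change 1.06, and 0.49 without cKO replicate 2). Every olfactory bulb cKO library held less than every control (-0.41). Of all genes tested, 7.08% lay fully above in hippocampus and 4.71% fully below in olfactory bulb. The share of genes apart in opposite directions was not counted, and the difference between these regions was not tested.

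A single library lay far from the other 3 of its group in 11 of 132 cases, each case being 1 gene in 1 group of 4 libraries. The cut used marks about 1 in 20 sets of independent, normally distributed values. Genes of a group share its libraries, so the cases are not independent, and the share among all genes was not counted. Hippocampus cKO replicate 2 at P28 accounts for 6 of the 11. It was lowest for Mvd (15.9 normalized reads) and highest for Idi1 (1488), Fdft1 (933), Sqle (2445), Acly (576) and Acss2 (419). In cortex Idi1 was highest in P14 replicate 3 (1402) and Srebf1 in P14 replicate 1 (323). At P28 Acss2 was highest in control replicate 1 (238) and in cKO replicate 1 (282), and Nsdhl was lowest in cKO replicate 4 (170), the later-round library.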

How the results depend on the processing

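Of the calls between P14 and P1, 25 of 27 (cortex), 20 of 23 (hippocampus) and 15 of 21 (olfactory bulb) passed in every alternative run. The P14 to P7 calls depended more on the setting: 6 of 18 (cortex), 6 of 14 (hippocampus) and 10 of 15 (olfactory bulb) passed in all. One call changed sign, Scd2 in cortex between P7 and P14, at -0.03 under quantile scaling. The Scd1 call of that cortex step was lost under quantile scaling, at 0.11. Hmgcs1 was not called at that step in the main fit. It was called lower in 1 alternative, and its change under quantile scaling was -0.48. In cortex, TMM, edgeR and DESeq2 left 1 gene lower for P14 against P1 and 2 for P14 against P7, and a pseudocount of 8 gave 1 lower at P7. In hippocampus, quantile scaling gave 8 higher for P14 against P7, and quantile scaling, DESeq2 and the fit of 2 ages gave 1 lower at P7. In olfactory bulb, TMM and edgeR gave 1 lower for P14 against P7, and the fit of 2 ages gave 1 lower in both P14 comparisons and 9 higher at P7. At P28 the number of genes with an unadjusted p under 0.05 became 0 (quantile) and 5 (deposit round) in cortex. It became 1 (DESeq2) in hippocampus and 1 (no filter) in olfactory bulb, and no alternative called any. The share of all genes under that level in these alternatives is not given here. The cause of these shifts was not tested.

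Leaving out 1 library at a time gave, for P14 against P7, 6 to 12 higher in cortex (6 without P7 replicate 1) and 2 to 8 lower (3, 2 and 4 without P7 replicate 2, P7 replicate 3 and P14 replicate 1). In olfactory bulb it gave 1 to 3 lower (1 without any 1 P1 or P7 library). For P7 against P1 it gave 0 to 1 lower in cortex (1 without P1 replicate 2) and hippocampus (1 without P14 replicate 1 or 3) and 3 to 7 higher in olfactory bulb (3 without any 1 P1 library or P7 replicate 2). For P14 against P1 in olfactory bulb it gave 1 to 4 lower (1 without P1 replicate 2 or 3). At P28 genes with an unadjusted p under 0.05 numbered 0 to 2 in cortex (0 without control replicate 4 or cKO replicate 1 or 3, and 2 without control replicate 1 or cKO replicate 4), 0 to 1 in hippocampus (1 without cKO replicate 2) and 0 to 4 in olfactory bulb (4 without control replicate 3, and 1 without control replicate 1 or 2). The share of all genes under that level in these fits is not given here. The 19 region differences ranged from 16 to 22. No paired analysis was possible because the labels give no replicate numbers that groups share.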

Other observations

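Genes that store, export or break down sterols also changed from P1 to P14. Of 7 tested, 4 were higher in cortex, 3 higher and 1 lower in hippocampus, and 6 higher in olfactory bulb (limma, median changes 1.00, 0.58 and 1.79). Cyp46a1, which hydroxylates brain cholesterol for export, was higher in all 3 regions, by 1.51 (cortex), 1.49 (hippocampus) and 3.03 (olfactory bulb). Cyp7b1, which hydroxylates oxysterols, rose by 2.75, 2.06 and 3.38, and Soat1, which esterifies cholesterol for storage, by 1.22, 1.11 and 1.92 in the same order.

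The genes that process SREBP or move sterol through lysosomes were mixed, with 4 higher and 3 lower of 14 in cortex, 2 against 4 in hippocampus and 5 against 2 in olfactory bulb. Mbtps2, the protease that makes the second cut in SREBP, fell by 1.29 in cortex, fell by 1.63 in hippocampus and fell by 1.28 in olfactory bulb. The lysosomal sterol carrier Npc2 was called higher in all 3 regions, by 0.79, 1.09 and 0.97. Tmem97 rose by 1.49 and Mlxip fell by 1.51 in cortex, and Npc1 and Mylip rose by 1.83 and 1.71 in olfactory bulb. At P28 no gene of either list was called by limma, edgeR or DESeq2. At an unadjusted p under 0.05 limma found 3 in hippocampus (Soat1, Lipa and Cyp7b1) and 0 in the other regions, and edgeR and DESeq2 found 2 in hippocampus (Soat1 and Cyp7b1).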
